A study of Mus musculus with 23 samples.

Results

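A set of 9 genes was followed together across the series: the neurotrophins Bdnf and Ntf3, the receptors Ntrk2, Ntrk3, Ngfr and Sort1, and the activity-secreted factors Vgf, Nptx2 and Inhba. They were chosen by name, with earlier results of these data known. Their symbols were matched to Ensembl identifiers, giving 9 of the 52636 genes in the files. The data were RNA-seq counts from whole hippocampus of WT mice and of mice carrying P301S tau, a mutant human tau found in familial frontotemporal dementia, on a mixed C57Bl6 and Balbc background. WT mice contributed 6 libraries in each condition, normoxia and hypoxia, and P301S mice 5 in normoxia and 6 in hypoxia. The series title describes the hypoxia as chronic and intermittent and sets it beside tau pathology. The sources used here do not give the age, the sex, the hypoxia regimen or the promoter that drives the transgene. Nothing in the labels ties libraries to separate animals, and p-values therefore rest on the spread between libraries, which may be technical in part.

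Neurotrophins are secreted growth factors that are made as precursors and cut to their mature form inside or outside the cell. Mature BDNF acts on the receptor kinase TrkB and NT-3 on TrkC, and the precursors bind p75NTR together with sortilin. In the hippocampus BDNF is made mainly by excitatory neurons, its transcription follows neuronal activity, and it is known for its part in synaptic strengthening and memory. Vgf, Nptx2 and Inhba are also transcribed after activity, and their products are released from neurons.

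Library depth was 19.1 to 25.8 M counts. Markers of hippocampal fields were present in every library, with summed levels of 717 to 1032 CPM (counts scaled to an equal library size) for 8 CA1 genes and 407 to 711 CPM for 8 dentate granule cell genes. Markers of the choroid plexus, a tissue next to the hippocampus, summed to between 68.6 and 3773 CPM, and 6 libraries stood apart at the low end (WT normoxia replicate 4, WT hypoxia replicates 1, 4 and 5, P301S hypoxia replicates 1 and 4). Sample titles carry a further number that is shared by WT normoxia replicates 1 to 5 (66), by WT hypoxia replicates 1 to 4 (31) and by WT hypoxia replicates 5 and 6 (32). The P301S libraries each carry a number of their own, and no number occurs in more than 1 group, so what it stands for cannot be told apart from hypoxia in WT or from genotype. If it marks a shared source, the WT libraries are not independent and p-values that rest on them are too small. These include those of Vgf and Ntrk3 between the genotypes and that of Bdnf for hypoxia averaged over genotypes. All groups share a common estimate of the spread, so the p-value of Bdnf within P301S draws on the WT libraries too. Because these are bulk samples, fewer cells of a type and less RNA per cell cannot be told apart.

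Bdnf has several starts, each with its own promoter, and 2 of its 7 windows in the RefSeq table (mouse GRCm38.p6, the 250 bases before each start) are shown because Bdnf is the member that differed with hypoxia. The searched motifs were the cyclic AMP response element (CRE, TGACGTCA), its core TGACG, the AP-1 site TGANTCA, and ACGTG and GCGTG, the cores of hypoxia response elements, all on both strands. Capitals mark every match. The first window is chr2:109674450-109674699 on the plus strand, before the start that opens the gene. The other is chr2:109692186-109692435 on the plus strand, before the start of the exon usually numbered IV, the promoter best known for its response to neuronal activity.
Bdnf start I: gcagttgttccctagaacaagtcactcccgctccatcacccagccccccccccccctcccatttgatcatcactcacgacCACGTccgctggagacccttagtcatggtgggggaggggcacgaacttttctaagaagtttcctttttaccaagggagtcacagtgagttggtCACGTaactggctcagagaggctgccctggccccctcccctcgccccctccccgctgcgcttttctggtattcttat
Bdnf start IV: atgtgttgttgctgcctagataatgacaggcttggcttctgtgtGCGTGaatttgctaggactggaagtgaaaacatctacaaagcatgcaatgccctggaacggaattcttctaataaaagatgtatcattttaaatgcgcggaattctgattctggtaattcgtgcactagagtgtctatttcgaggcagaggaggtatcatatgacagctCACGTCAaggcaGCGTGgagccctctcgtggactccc
The first window held 2 ACGTG cores, at 170 and 77 bases before the start. In the second, the run CACGTCA joined an ACGTG core at 37 bases before the start and a CRE core at 35 bases before it, which overlap. That window also held GCGTG at 206 and at 25 bases before the start. Of 32851 RefSeq windows of this length, 16.6% held ACGTG, 28.2% GCGTG, 17.8% the CRE core, 6.75% the AP-1 site and 1.55% the full CRE. A match is a description of letters only. Counted along the gene, the windows shown are 1 and 3, the only Bdnf windows with ACGTG. Window 2 held an AP-1 match, window 5 held 1 GCGTG, and windows 4, 6 and 7 held no match. Among the other members, Ntf3, Ntrk2, Ngfr and Inhba had an entry in the table, and no window of these 5 genes held the full CRE. Hypoxia cores were also present before starts of Ntf3 (the run CACGTG, which reads ACGTG on each strand), Ngfr (1 ACGTG and 1 GCGTG), Inhba (1 GCGTG) and Ntrk2 (3 GCGTG). Annotated exons held 166 bases of that Ntf3 window and 37 bases of the Ngfr window. The deposited counts cover the whole gene, so they do not say which Bdnf start was used.

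Hypoxia was followed by a higher Bdnf level in P301S mice, P301S mice had a lower Vgf level in normoxia, and P301S mice had a higher Ntrk3 level in hypoxia. Of the 9 genes, 8 had enough counts to be tested, among 17788 genes in all, with edgeR's quasi-likelihood test, and a gene was called at a Benjamini-Hochberg adjusted p below 0.05. In the comparison of hypoxia with normoxia in P301S, 1 of the 8 was called (Bdnf, higher), where 0.41% of all tested genes were called. In WT, hypoxia gave 0 calls among the 8, against 0.0731% of all genes, 0 of the 8 had an unadjusted p under 0.05, and DESeq2 and limma-voom called 0 of the 8 as well. P301S against WT gave 1 call in normoxia (Vgf, lower), against 6.35% of all genes, and 1 in hypoxia (Ntrk3, higher), against 1.87% of all genes. The test of whether the effect of hypoxia differed between the genotypes (the interaction) called 0 of the 8 and 0.0394% of all genes. It gave an unadjusted p under 0.05 for 6 of the 8, where 9.43% of all genes had one, and DESeq2 and limma-voom also called 0 of the 8. The members share libraries and were named with earlier results of these data known, so that count only describes them. Averaged over genotypes, hypoxia gave 1 call (Bdnf), against 1.33% of all genes, and averaged over conditions, genotype gave 1 call (Ntrk3), against 13.1%. These comparisons share libraries: P301S normoxia, for example, is the reference of the hypoxia comparison in P301S and the other arm of the genotype comparison in normoxia.

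**Figure D1:**
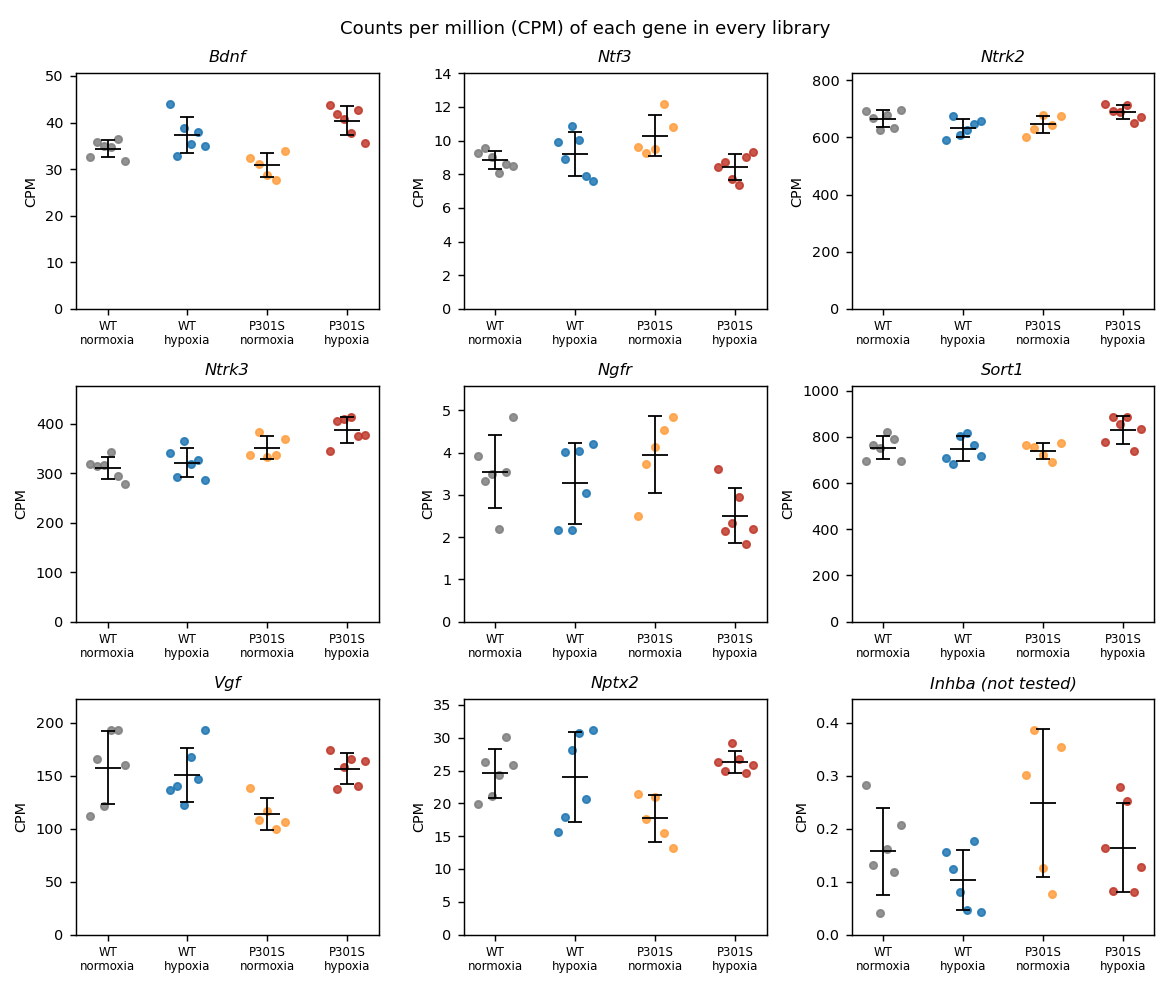
CPM of each of the 9 genes in every library, by group on the horizontal axis, with points for libraries and bars for the group mean and its SD. Of these 9 genes, Bdnf and Nptx2 are those whose P301S normoxia and P301S hypoxia libraries do not overlap. The share of all tested genes without overlap was not counted.

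Bdnf (ENSMUSG00000048482, GRCm38 chromosome 2, 109674700 to 109727007, plus strand) encodes the ligand of TrkB. Its level in WT normoxia ran from 31.7 through a median of 34.9 to 36.5 CPM, and in WT hypoxia from 32.8 through 36.7 to 44.0 CPM. The 5 P301S normoxia libraries held 32.4, 31.2, 28.8, 27.7 and 34.0 CPM. P301S hypoxia ran from 35.6 through 41.3 to 43.9 CPM. All 6 P301S hypoxia libraries lay above all 5 P301S normoxia libraries, whereas the WT groups overlapped. How many of all tested genes separate in this way was not counted. The mean rose from 30.8 ± 2.56 (SD, n = 5) to 40.4 ± 3.10 CPM (SD, n = 6) in P301S, a log2 fold change of 0.39 (SE 0.0709, edgeR quasi-likelihood test, adjusted p = 0.0161). In WT the mean was 34.4 ± 1.87 CPM in normoxia and 37.3 ± 3.94 CPM in hypoxia (n = 6 each), a log2 difference of 0.11 that did not pass the edgeR test (adjusted p = 0.521). The interaction for Bdnf was 0.28 (SE 0.0977) and was not called (edgeR adjusted p = 0.368), so the hypoxia effect was not shown to differ between genotypes. Averaged over genotypes it was 0.25 (SE 0.0489, edgeR adjusted p = 0.0114), 1.19-fold, and 0.22 with the call lost without the 6 choroid-poor libraries (adjusted p = 0.103). Between the genotypes Bdnf was not called in either condition, with log2 differences for P301S against WT of -0.16 in normoxia (edgeR adjusted p = 0.177) and 0.12 in hypoxia (0.365). With the trend in length and GC removed, the normoxia value was -0.29 and was called (edgeR adjusted p = 0.0475), and 93.3% of genes in its length bin stood above Bdnf before that.

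Dentate granule cell markers moved in the same direction as Bdnf in P301S. All 8 of them were higher in P301S hypoxia, with a median log2 difference of 0.27, and 0 of the 8 were called in that comparison by edgeR, DESeq2 or limma-voom (1 at an unadjusted p under 0.05). Their summed level was 407 to 556 CPM in P301S normoxia and 499 to 679 CPM in P301S hypoxia. With the mean log2 level of these markers added to the model as a covariate, the Bdnf difference was 0.29 and was not called (edgeR adjusted p = 0.0961). Choroid plexus markers were lower in P301S hypoxia for 13 of 13 genes (median -0.74). Summed, they ran from 604 to 3416 CPM in P301S normoxia and from 68.6 to 2752 CPM in P301S hypoxia. The median sum of these markers went the other way, at 851 CPM in P301S normoxia and 1234 CPM in P301S hypoxia. Bdnf was still called with their score as a covariate (0.36, adjusted p = 0.0227) and without the 6 libraries lowest in it (0.39, adjusted p = 0.0402), by edgeR in each case. Meningeal fibroblast markers were lower for 7 of 7 genes (median -0.36), summing to 116 to 512 CPM in P301S normoxia and 78.1 to 297 CPM in P301S hypoxia, and with their score as a covariate Bdnf was called too (0.38, adjusted p = 0.0472). Of these lists, Kcnj13 (choroid plexus, wholly under Gigyf2) and Ogn (meningeal, wholly under Cenpp) had 0 counts in every library. Oligodendrocyte markers (8 of 8, median -0.15) and ependymal markers (6 of 6, median -0.31) were also lower in P301S hypoxia, and their part in the Bdnf value was not tested. The CA1, CA2 and CA3, neocortex and subiculum, interneuron, astrocyte, microglia, endothelial and mural lists had medians of -0.03 to 0.15 there, with 1 call among them (Amigo2, a CA2 and CA3 marker, 0.50, edgeR adjusted p = 0.0448). Over all genes, 0.41% were called in that comparison. The Bdnf call was lost without P301S normoxia replicate 3 (0.37, edgeR adjusted p = 0.0719) or replicate 4 (0.35, adjusted p = 0.0683). The antisense gene Gm45346 covers 3.62% of the Bdnf body and 18.3% of its exon bases, and it held 60 counts over all libraries against 19795 for Bdnf.

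**Figure D2:**
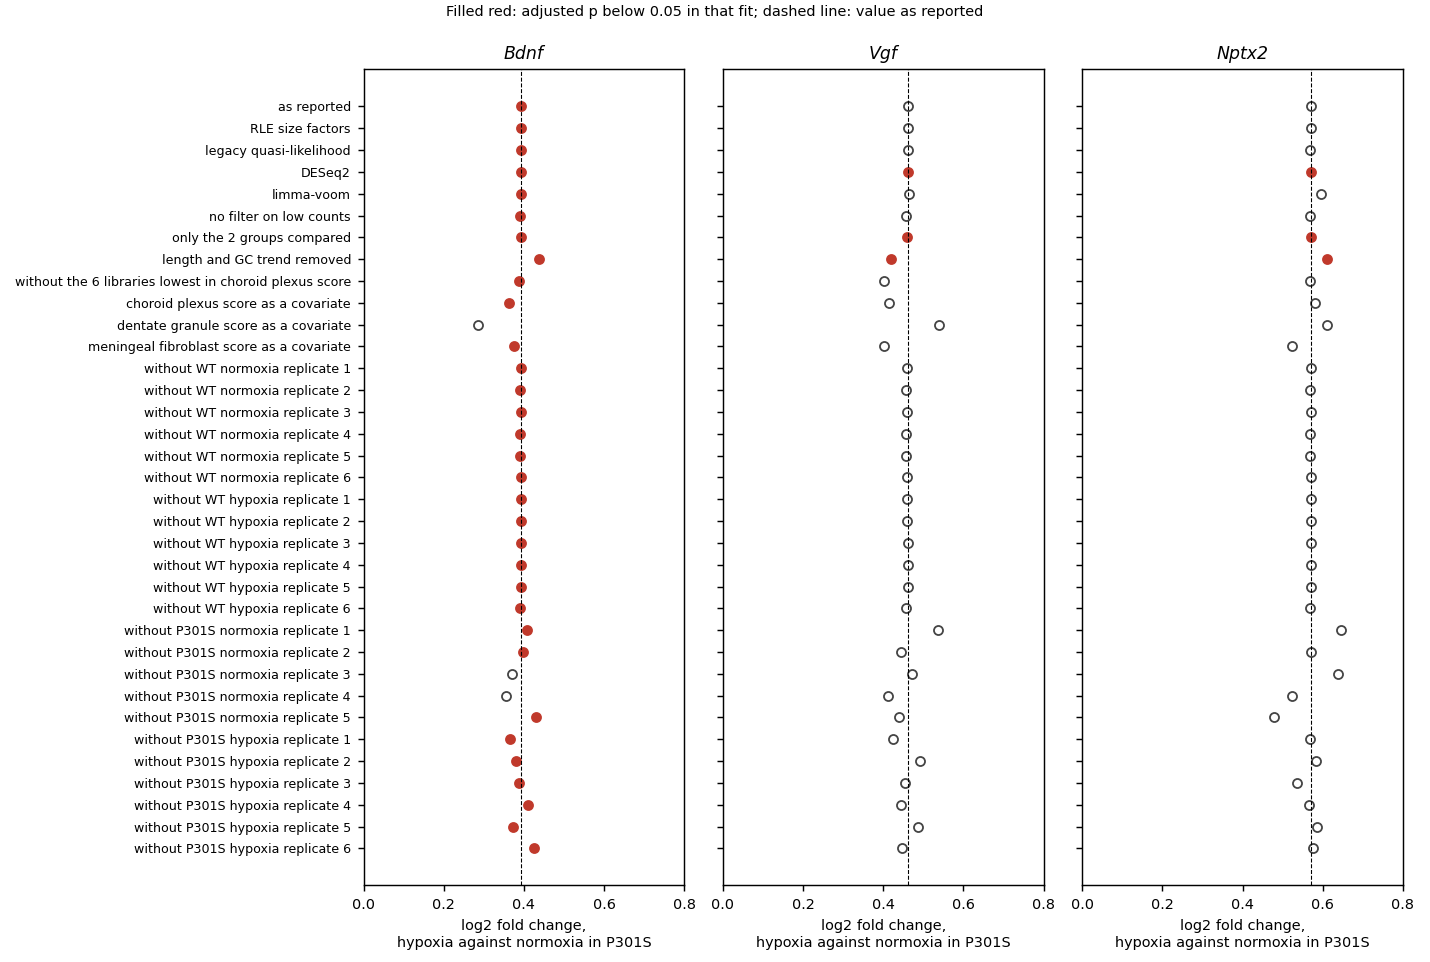
Log2 difference between hypoxia and normoxia in P301S for Bdnf, Vgf and Nptx2 (horizontal axis) under each processing setting (vertical axis), with calls in filled red and the reported value as a dashed line. Bdnf runs from 0.29 to 0.44 and is open with the dentate granule covariate and without P301S normoxia replicate 3 or replicate 4.

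Ntf3 (ENSMUSG00000049107, chromosome 6, 126101412 to 126166910, minus strand) encodes NT-3, the ligand of TrkC. It lay between 8.07 and 9.57 CPM in WT normoxia, between 7.61 and 10.9 CPM in WT hypoxia and between 7.35 and 9.33 CPM in P301S hypoxia. P301S normoxia held 9.64, 9.28, 9.49, 12.2 and 10.8 CPM. These 5 were the highest as a group, though their range met that of each other group. In P301S the log2 difference between hypoxia and normoxia was -0.29 (SE 0.0951, edgeR adjusted p = 0.165), and in WT it was 0.06 (adjusted p = 0.850). The sign in P301S was opposite to that of Bdnf, and leaving out any 1 library gave values from -0.33 to -0.22 without a call.

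**Figure D3:**
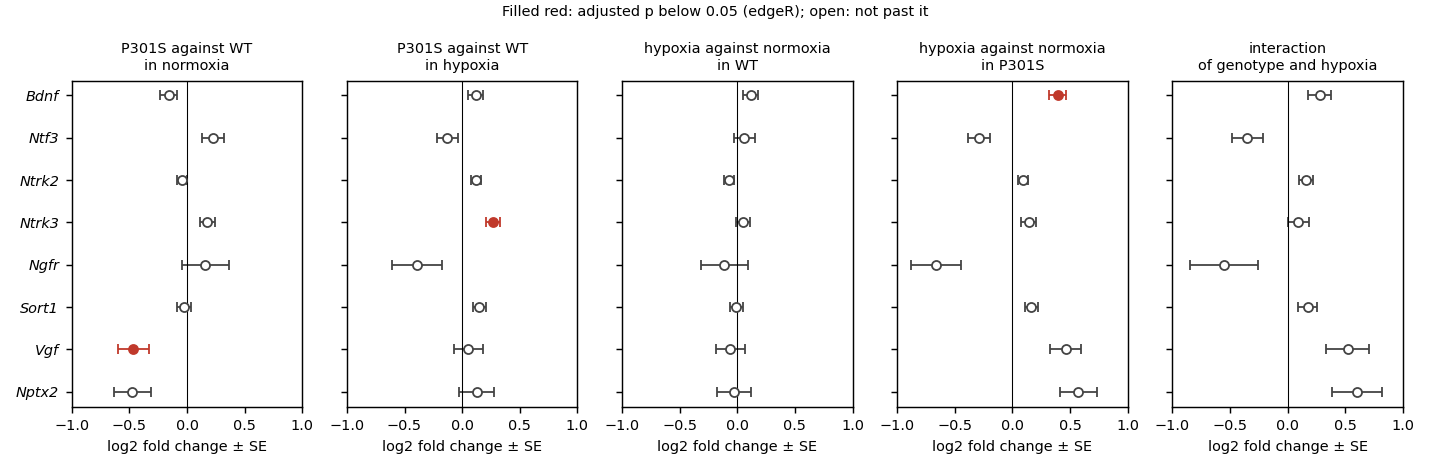
Log2 differences with their SE (horizontal axis) for the 8 tested genes (vertical axis), 1 panel per comparison, with calls in filled red. Bdnf is filled for hypoxia in P301S, Vgf for genotype in normoxia and Ntrk3 for genotype in hypoxia, and no gene is filled for hypoxia in WT.

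Ntrk2 (ENSMUSG00000055254, chromosome 13, 58806569 to 59133970, plus strand) encodes TrkB, which in brain is made by neurons as the full kinase and by astrocytes mostly as a truncated form. Its group means were 665 ± 29.4 CPM in WT normoxia, 634 ± 31.7 in WT hypoxia, 645 ± 31.0 in P301S normoxia and 689 ± 25.6 in P301S hypoxia (SD; n = 6, 6, 5 and 6). This was the steadiest of the 9 genes, with a coefficient of variation of 4.48% within groups. The ranges of all 4 groups overlapped, and edgeR called it in no comparison. P301S hypoxia, the highest group, was above WT hypoxia by 0.12 on the log2 scale (edgeR adjusted p = 0.134), a difference that DESeq2 called (adjusted p = 0.0484). In normoxia P301S stood at -0.04 against WT (edgeR adjusted p = 0.618), and at -0.18 with a call once the trend in length and GC was removed (adjusted p = 0.0417). Counts over the whole gene do not separate the full and the truncated form.

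Ntrk3 (ENSMUSG00000059146, chromosome 7, 78175959 to 78738012, minus strand) encodes TrkC. In WT it ran from 279 through 315 to 343 CPM in normoxia and from 286 through 323 to 364 CPM in hypoxia. The P301S normoxia libraries held 336, 383, 333, 336 and 369 CPM, and P301S hypoxia ran from 346 through 391 to 414 CPM. P301S libraries were the higher ones in each condition, with 5 of 6 hypoxia libraries above every WT hypoxia library and 2 of 5 normoxia libraries above every WT normoxia library. The difference in hypoxia was called, at a log2 fold change of 0.27 (SE 0.0615, edgeR adjusted p = 0.0240, 1.21-fold). In normoxia it was 0.18 and missed the threshold (edgeR adjusted p = 0.0980), and the interaction was 0.09 (adjusted p = 0.791). Averaged over conditions Ntrk3 was 0.22 higher in P301S (SE 0.0445, edgeR adjusted p = 0.00218). The call in hypoxia was lost without WT hypoxia replicate 2 or 6 or P301S hypoxia replicate 2, 3 or 4, each taken alone, with adjusted p of 0.0652 to 0.0768 and values of 0.23 to 0.25. It was also lost with only the 2 groups compared in the fit (0.27, adjusted p = 0.0552), whereas the normoxia difference was called with the dentate granule score as a covariate (0.21, edgeR adjusted p = 0.0312). Without the 6 libraries lowest in choroid plexus markers the difference in hypoxia was 0.32 and was not called (edgeR adjusted p = 0.163). The difference in hypoxia was called with the choroid plexus, dentate granule or meningeal score as a covariate, and in hypoxia the meningeal markers were lower in P301S than in WT for 7 of 7 genes (median -0.44).

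Gene length moved with the genotype comparison, and Ntrk3 has one of the longest bodies in the genome, 562054 bases. Over 10 bins of gene-body length, the median log2 difference between P301S and WT ran from -0.17 in the shortest bin to 0.11 in the longest in normoxia, and from -0.12 to 0.08 in hypoxia. Within its own bin, the longest, 34.3% of genes had a higher value than Ntrk3 in normoxia and 5.23% in hypoxia. After the trend with length and GC content was removed, Ntrk3 stood at 0.21 in hypoxia (edgeR adjusted p = 0.172) and at -0.04 in normoxia (adjusted p = 0.826). Its average over conditions was then 0.08 (adjusted p = 0.386). The counting took in introns, which make up most of a gene of this length. Exons cover 5.37% of the Ntrk3 body and 42.7% of the 6960 bases of Vgf.

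**Figure D4:**
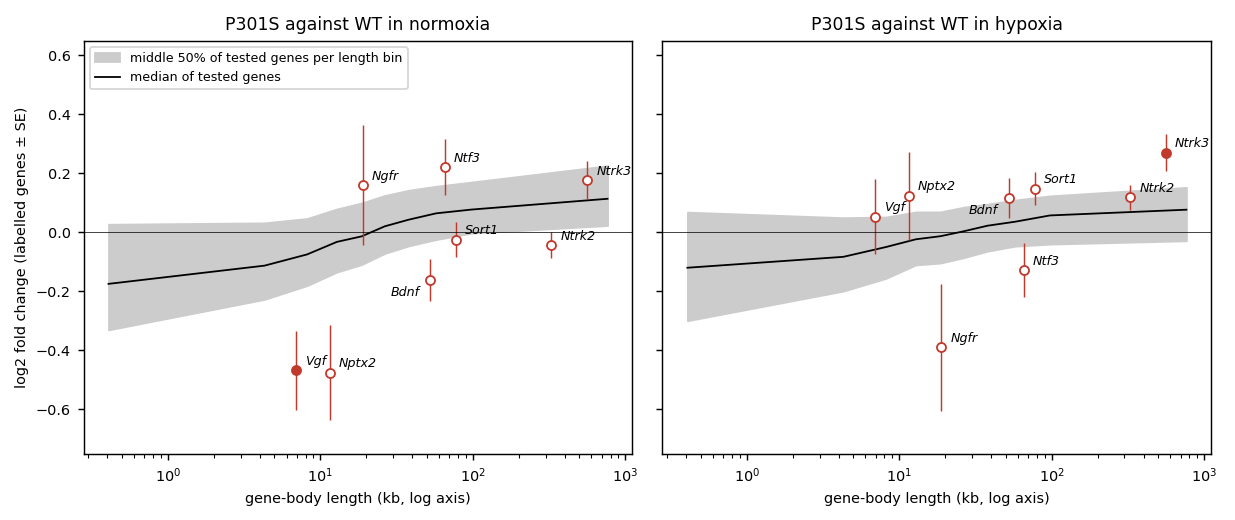
Median log2 difference between P301S and WT in 10 bins of gene-body length (horizontal log axis, kb), in normoxia and in hypoxia, with the labelled genes and their SE. The medians climb from -0.17 to 0.11 in normoxia and from -0.12 to 0.08 in hypoxia, and Ntrk3 lies above its bin in hypoxia.

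Ngfr (ENSMUSG00000000120, chromosome 11, 95568818 to 95587735, minus strand) encodes p75NTR, which in the adult forebrain is best known from cholinergic neurons of the basal forebrain. It was the lowest of the tested members, at 42 to 123 counts per library. The P301S normoxia libraries held 2.50, 3.74, 4.12, 4.54 and 4.85 CPM, and P301S hypoxia ran from 1.84 through 2.26 to 3.61 CPM. Of the 6 hypoxia libraries, 4 were below every normoxia library, and the ranges overlapped through P301S normoxia replicate 1, the lowest of its group. The log2 difference was -0.66 (SE 0.215), the largest in size of the 8 tested members in this comparison, and it was not called (edgeR adjusted p = 0.161). In WT, at 2.19 to 4.84 CPM in normoxia and 2.16 to 4.20 CPM in hypoxia, it was -0.11 (adjusted p = 0.875). The 5 tested cholinergic markers were all lower in P301S hypoxia (median -0.70), with sums of 0.732 to 8.07 CPM in P301S normoxia and 0.781 to 5.99 CPM in P301S hypoxia, and their part in the Ngfr value was not tested. The median sum was 1.93 CPM in P301S normoxia and 1.32 CPM in P301S hypoxia. In WT it was 2.81 CPM in normoxia and 1.46 CPM in hypoxia, so it was lower with hypoxia there too. The cholinergic gene Slc18a3 had 0 counts in every library, and it lies wholly under Chat. With the score of the meningeal fibroblast markers as a covariate the Ngfr difference was -0.65, with that of the dentate granule markers -0.40, and without the 6 libraries lowest in choroid plexus markers -0.90, none of them called by edgeR (adjusted p of 0.0866 to 0.535 over the 11 alternatives).

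Sort1 (ENSMUSG00000068747, chromosome 3, 108284082 to 108361511, plus strand) encodes sortilin, the sorting receptor that binds neurotrophin precursors. The WT libraries lay between 695 and 821 CPM in normoxia and between 683 and 816 CPM in hypoxia. In P301S normoxia the values were 763, 755, 722, 691 and 774 CPM, and P301S hypoxia ran from 741 through 844 to 887 CPM. Of the 6 P301S hypoxia libraries, 5 were above every P301S normoxia library. The log2 difference of 0.16 (SE 0.0590) was nevertheless not called (edgeR adjusted p = 0.206), and nor was the difference of 0.15 between the genotypes in hypoxia (adjusted p = 0.159).

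Vgf (ENSMUSG00000037428, chromosome 5, 137026392 to 137033351, plus strand) encodes a secreted precursor of several neuropeptides and is induced by neurotrophins. In WT normoxia it ran from 112 through 163 to 193 CPM, and in WT hypoxia from 122 through 144 to 194 CPM. The P301S normoxia libraries held 138, 108, 117, 99.3 and 107 CPM, and P301S hypoxia ran from 138 through 161 to 174 CPM. Of the 5 P301S normoxia libraries, 3 lay below every WT normoxia library, and the ranges overlapped. The mean of 114 ± 15.0 CPM (SD, n = 5) in P301S normoxia against 158 ± 34.6 CPM (SD, n = 6) in WT normoxia stood at 0.723-fold, a log2 value of -0.47 (SE 0.135, edgeR adjusted p = 0.0416). In hypoxia the genotypes did not differ beyond their spread (0.05, edgeR adjusted p = 0.874). Within P301S, hypoxia libraries were 0.46 above normoxia (SE 0.135), which was not called (edgeR adjusted p = 0.129). DESeq2 called that difference (adjusted p = 0.0331), as did edgeR on the 2 P301S groups alone (0.0345) and with the trend in length and GC removed (0.42, adjusted p = 0.0337). The Vgf interaction was 0.52 (SE 0.185, edgeR adjusted p = 0.370).

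The Vgf call in normoxia was narrow. It was lost without a filter on low counts (edgeR adjusted p = 0.0752), with only the 2 groups compared (0.101), with the trend in length and GC removed (-0.34, adjusted p = 0.0521), without the 6 libraries lowest in choroid plexus markers (-0.40, adjusted p = 0.145) and with the meningeal score as a covariate (-0.44, adjusted p = 0.0547). Leaving out WT normoxia replicate 2, 4, 5 or 6 or P301S normoxia replicate 2, 3, 4 or 5, each taken alone, also lost it, with values of -0.48 to -0.41 and adjusted p of 0.0679 to 0.108. The direction was the same in every one of these fits, and Vgf was still called with the choroid plexus or the dentate granule score as a covariate. Choroid plexus markers were lower in P301S normoxia than in WT normoxia for 13 of 13 genes (median -0.45). In its length bin the median was -0.07, and 97.0% of genes stood above Vgf.

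Nptx2 (ENSMUSG00000059991, chromosome 5, 144545902 to 144557478, plus strand) encodes neuronal pentraxin 2, which is secreted at excitatory synapses and gathers AMPA receptors there. The P301S normoxia libraries held 21.4, 17.6, 20.9, 15.5 and 13.1 CPM. P301S hypoxia ran from 24.6 through 26.1 to 29.2 CPM, and every library there was above all 5 of P301S normoxia. The share of all tested genes that separate like this was not counted. WT libraries spread more widely, from 19.8 through 25.1 to 30.1 CPM in normoxia and from 15.6 through 24.4 to 31.2 CPM in hypoxia, and both WT ranges overlapped both P301S ranges. The log2 difference in P301S was 0.57 (SE 0.161, 1.49-fold) and was not called (edgeR adjusted p = 0.113). It was called by DESeq2 (adjusted p = 0.0284), with only the P301S groups in the edgeR fit (0.0407) and with the trend in length and GC removed (0.61, adjusted p = 0.0451). In WT the difference was -0.03 (edgeR adjusted p = 0.955), and the interaction was 0.60 (SE 0.220, edgeR adjusted p = 0.383).

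Between the genotypes in normoxia, Nptx2 was -0.48 in P301S against WT and not called by edgeR (adjusted p = 0.0776), whereas DESeq2 called it (0.0365). In P301S hypoxia the levels of Bdnf, Vgf and Nptx2 (means of 40.4, 157 and 26.3 CPM) stood beside WT normoxia means of 34.4, 158 and 24.6 CPM. In P301S normoxia these 3 genes and Sort1 had the lowest mean of the 4 groups. Of neighbouring groups in order of mean, the gap was larger than the larger of their SDs for Bdnf between P301S normoxia and WT normoxia, for Vgf between P301S normoxia and WT hypoxia, for Sort1 between WT normoxia and P301S hypoxia, and for Ntrk3 between WT hypoxia and P301S normoxia and between the P301S groups. For Ntf3, Ntrk2, Ngfr and Nptx2 no neighbouring groups differed by that much, and the ranges of all neighbouring groups overlapped in all of the members.

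Inhba (ENSMUSG00000041324, chromosome 13, 16011851 to 16031621, plus strand) encodes the beta A subunit of activin and could not be read from these files. Its libraries held 1 to 9 counts, 91 in all, and it did not pass the filter. The antisense genes B230303A05Rik and Gm48444 cover 90.1% of its body and all of its exon bases, and they collected 15155 counts. The counting program sets aside reads that fall in more than 1 gene by default, and no strand setting was used. B230303A05Rik stood at 21.9 to 32.6 CPM over all libraries and was not called for hypoxia in either genotype (edgeR adjusted p = 0.673 in WT and 0.798 in P301S). Under that default, reads from Inhba exons are set aside and not given to either gene. The level of B230303A05Rik therefore does not stand for that of Inhba.

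Per kilobase of exon, Sort1 had the highest mean level at 102 ± 7.98 CPM per kb (SD, n = 23). Next were Vgf at 49.2 ± 9.62, Ntrk2 at 34.1 ± 1.80 and Ntrk3 at 11.4 ± 1.29. Nptx2 followed at 9.22 ± 2.04, Bdnf at 5.78 ± 0.724, Ntf3 at 5.33 ± 0.669 and Ngfr at 0.955 ± 0.276. Per kilobase of exon, Bdnf and Ntf3 were the neighbours whose levels differed by less than their spread. Because introns were counted, long genes are raised on this scale. Per kilobase of the whole gene body the order began with Vgf (21.0), Sort1 (9.94), Nptx2 (2.02) and Ntrk2 (2.01). Then came Bdnf (0.687), Ntrk3 (0.609), Ngfr (0.174) and Ntf3 (0.139), so Bdnf and Ntf3 were not neighbours there. The coefficient of variation within groups was 4.48% for Ntrk2, 6.59% for Sort1, 7.38% for Ntrk3, 8.25% for Bdnf, 11.01% for Ntf3, 16.4% for Vgf, 18.6% for Nptx2 and 25.8% for Ngfr, the tested member with the lowest counts.

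As a group the 8 tested members had a median log2 difference of 0.15 between hypoxia and normoxia in P301S and -0.02 in WT, beside a median of 0.00 over all genes in each. All 8 had an unadjusted p under 0.05 in P301S, where 13.8% of all genes did, and 0 of the 8 in WT, where 11.6% did. The values were positive in P301S for 6 of the 8 and negative for Ntf3 and Ngfr. The members are few and were named with earlier results known, so these counts only describe them.

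Genes of the rapid activity programme, such as Fos and Arc, are switched on within minutes of neuronal firing, and several were lower with hypoxia. In P301S 4 of 12 fell with hypoxia and 0 rose: Fos (-1.34, adjusted p = 0.0210), Nr4a1 (-0.57, 0.0286), Egr2 (-1.34, 0.0399) and Arc (-0.85, 0.0436), by edgeR. Negative values were held by 10 of the 12, and the median was -0.41. In WT 1 of 12 fell by edgeR (Fosb, -0.71, adjusted p = 0.0428), whereas DESeq2 called 9 and limma-voom 0. Over all tested genes, edgeR called 0.41% for hypoxia in P301S and 0.0731% in WT. All 12 values in WT were negative and the median was -0.56. Fos ran from 10.7 to 20.9 CPM in P301S normoxia and from 3.51 to 8.61 CPM in P301S hypoxia, without overlap, though the share of all tested genes without overlap was not counted. Bdnf and Nptx2, which are transcribed after activity as well, had their highest group means in P301S hypoxia, where Fos was low.

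**Figure D5:**
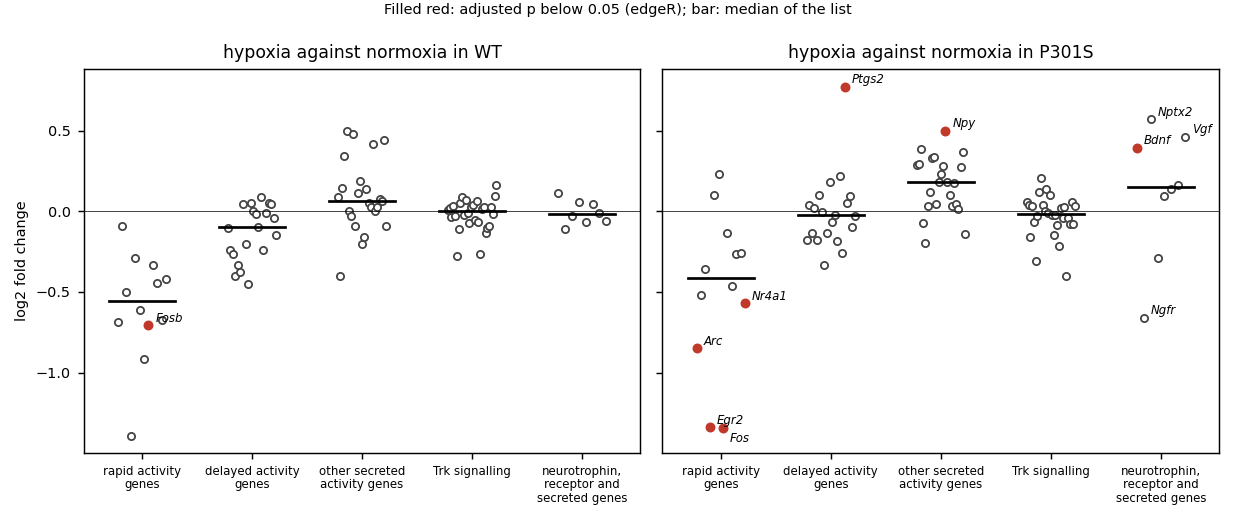
Log2 difference between hypoxia and normoxia (vertical axis) of each tested gene of 4 lists and of the 8 members, in WT and in P301S, with calls in filled red and a bar for each median. The rapid activity genes sit mostly below 0 in both genotypes, with medians of -0.56 and -0.41.

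Slower activity genes were mixed, in hypoxia comparisons where edgeR called 0.41% of all genes in P301S and 0.0731% in WT. Of 20 such genes, 1 rose in P301S (Ptgs2, cyclooxygenase 2, at 0.77, edgeR adjusted p = 0.00158), 0 fell, and the median was -0.03. Ptgs2 ran from 14.0 to 20.8 CPM in P301S normoxia and from 27.8 to 34.0 CPM in P301S hypoxia. These ranges did not overlap, as for Bdnf, and the share of all tested genes without overlap was not counted. In WT edgeR called 0 of the 20 (6 at an unadjusted p under 0.05), DESeq2 3 and limma-voom 0, and the median was -0.10. Among 23 other secreted neuronal factors, 1 rose in P301S (the neuropeptide Npy, 0.50, edgeR adjusted p = 0.0134), 0 fell, 20 had positive values and the median was 0.18. In WT 0 of these 23 were called by edgeR, DESeq2 or limma-voom (5 at an unadjusted p under 0.05), 17 had positive values and the median was 0.07.

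In normoxia, where 672 genes were called lower in P301S than in WT and 458 higher (6.35% of all genes together), 3 of the 23 other secreted factors were lower and 0 were higher: Npy (-0.51, adjusted p = 0.00266), C1ql2, which dentate granule cells release at their synapses (-0.78, 0.0115), and Sst, somatostatin (-0.42, 0.0235), by edgeR. Of the 23, 19 had negative values, with a median of -0.13. Vgf was called lower in the same comparison. In hypoxia, where 1.87% of all genes were called, 1 of the 23 was lower in P301S (Cort, cortistatin, -0.94, edgeR adjusted p = 0.0241) and 0 were higher. Of the delayed activity genes, Gadd45g was lower in normoxia (-0.34, adjusted p = 0.0431), and Ptgs2 (0.58, 0.00345) and Homer1 (0.30, 0.0458), an activity-induced scaffold, were higher in hypoxia, by edgeR.

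Signalling genes downstream of the receptors showed few calls with hypoxia. Of 28 Trk pathway genes, edgeR called 0 in WT (3 at an unadjusted p under 0.05) and 0 in P301S (7 at an unadjusted p under 0.05), limma-voom 0 in each, and DESeq2 0 in WT and 1 in P301S. The adaptor Gab1 came nearest in the edgeR fit (-0.31 in P301S, adjusted p = 0.0955). Between the genotypes in normoxia, 2 of the 28 were higher and 2 lower in P301S, in a comparison that called 6.35% of all genes. The higher ones were the adaptors Frs2 (0.16, adjusted p = 0.0490) and Shc3 (0.30, 0.0498), and the lower ones Mapk3, which encodes ERK1 (-0.27, 0.00690), and Hras (-0.33, 0.00879), by edgeR. Mapk3 was lower in hypoxia too (-0.34, adjusted p = 0.00178). The genotype comparisons moved with gene length, and the Trk and p75NTR pathway genes were not set against their length bins. Of 14 p75NTR pathway genes, 2 were lower in P301S in normoxia (6.35% of all genes called in either direction), the p75NTR-binding Maged1 (-0.26, 0.0215) and Bex3 (-0.22, 0.0338), by edgeR. With hypoxia 0 of these 14 were called in either genotype by edgeR, DESeq2 or limma-voom (1 in each genotype at an unadjusted p under 0.05).

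Other partners gave few calls. The 6 tested relatives of the neurotrophins and their receptors gave 0 calls by edgeR, DESeq2 or limma-voom for hypoxia or genotype (1 or 2 of the 6 at an unadjusted p under 0.05 in each comparison), with Sorl1, a sortilin relative, at 0.29 with hypoxia in P301S (edgeR adjusted p = 0.135). Precursor-processing genes gave 0 of 11 by the same tools, with 2 at an unadjusted p under 0.05 for hypoxia in each genotype. For activin signalling, 1 of 16 was called in normoxia, near the 6.35% of all genes, the receptor Acvr2b, higher in P301S (0.33, edgeR adjusted p = 0.0411). Pentraxin and AMPA receptor partners of Nptx2 gave 0 of 6 by the 3 tools, with 2 at an unadjusted p under 0.05 for hypoxia in each genotype. Of 17 regulators of Bdnf transcription, Crtc3, a CREB coactivator (0.29, adjusted p = 0.0102), and Camk4, a kinase acting on CREB (0.33, 0.0240), were higher in P301S in normoxia by edgeR, beside 6.35% of all genes called there. With hypoxia edgeR called 0 of the 17 in either genotype (5 in WT and 2 in P301S at an unadjusted p under 0.05), limma-voom 0, and DESeq2 2 in WT.

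Across the 23 libraries with group means removed, each member was set beside 13294 genes by the correlation of log2 CPM, as a description in which all genes share the libraries and their depth. The nearest genes to Bdnf were Hnrnpm (Pearson r = 0.80), Fut8 (0.75) and Pde3b (0.75), and those to Ntrk3 were Grin2a (0.90), Ncor1 (0.89) and Trim2 (0.86). Sort1 lay nearest to Wasf1, Nsf and Rapgef2 (0.93, 0.93 and 0.92). Vgf lay nearest to Rnf208 (0.90), Rap1gap (0.90) and Ap2s1 (0.89), and Nptx2 to Pmepa1 (0.83), Mn1 (0.81) and Faim2 (0.79). For Ntrk2 the nearest were Akap5 (0.77), St8sia2 (0.75) and Thrb (0.74). Ngfr stood nearest to Fah (0.85), Plekha7 (0.77) and Olfml1 (0.77), and Ntf3 to Lrrc2 (0.70), Sdcbp (0.69) and Rsph14 (0.66).

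Within groups, Vgf and Nptx2 varied together (r = 0.61, Spearman rho = 0.67, and r = 0.56 without the 2 farthest libraries), as did Ntrk2 and Ngfr (0.67, 0.64 and 0.56) and Ntrk3 and Sort1 (0.61, 0.56 and 0.58). Ntrk3 and Ngfr varied in opposite directions (-0.57, -0.56 and -0.45). Bdnf had an r of -0.02 with Vgf and -0.21 with Nptx2. Bdnf, Vgf and Nptx2 therefore did not all vary together from library to library, and these values are given over 28 pairs as a description with no test.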

How the data were processed

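RNA-seq of hippocampus was analysed in 23 libraries of 4 groups taken from the genotype and condition labels. The deposited values are raw counts per gene, for which the authors ran featureCounts 1.6.2 over whole gene bodies of Ensembl release 90, per the file headers, with paired-end fragments and no strand setting. HISAT2, mm10 and DESeq2 1.6.3 are named in the submitters' processing notes. Reads shared by overlapping genes are dropped by the counting program's default, which touches Inhba above all. Counts of genes without a symbol were at most 0.0356% of a library.

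Tests used R 4.3.3, edgeR 4.0.16, limma 3.58.1, DESeq2 1.42.0 and, to read files, version 1.17.8 of data.table. Low counts were filtered by filterByExpr (minimum count 10), libraries were scaled by TMM factors, and a robust quasi-likelihood model of 4 group means was fitted. The 7 contrasts were two-sided, with Benjamini-Hochberg adjustment over 17788 genes, and the code was tested on simulated data. Each standard error is the fold change divided by the root of F. Exon lengths came from a GENCODE annotation of the same assembly. Log2 CPM used a prior count of 2, and a marker score is the mean centred log2 CPM of its list. Alternatives were other size factors, 2 other tools, no filter, only the groups compared, length and GC trends removed (splines with 5 degrees of freedom), choroid-poor libraries left out, marker scores as covariates and each library left out. The legacy quasi-likelihood fit and the dentate and meningeal covariates were chosen after the data had been seen. All members are named, from each list the called genes or else up to 2 with the lowest p, and per member the 3 most similar genes with a mean of at least 1 CPM. The members and lists were chosen with earlier results of these data known. A listed gene that is withheld is not reported here.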

Additional observations from a re-analysis of the deposited data

How the results depend on the processing

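Over all fold changes of the 8 tested members, 1814 values kept direction and side of the threshold under an alternative, 26 lost a call, 15 gained one and 25 changed sign. Counts of tested genes called are given as P301S against WT in normoxia, in hypoxia, hypoxia in WT, hypoxia in P301S, interaction, hypoxia averaged and genotype averaged, where the reported values are 1130, 333, 13, 73, 7, 236 and 2333. Leaving out 1 library at a time gave ranges of 365 to 2069, 91 to 618, 2 to 29, 7 to 154, 0 to 13, 85 to 371 and 1550 to 2913. Members called then ranged over 0 to 2, 0 to 1, 0 to 0, 0 to 1, 0 to 0, 1 to 1 and 1 to 2. Below, only counts that moved by more than 1.5 times are given. DESeq2 gave 807 in hypoxia, 155 for hypoxia in WT, 326 for hypoxia in P301S, 48 for the interaction and 626 for averaged hypoxia, with 2, 2 and 3 members called for genotype in normoxia, genotype in hypoxia and hypoxia in P301S. Without a filter the counts were 682, 213, 4, 38, 4 and 151 in the order above up to averaged hypoxia, and 0 members were called for genotype in normoxia. With only the 2 groups compared they were 368, 182 and 4 for the first 3 comparisons, with 0, 0 and 3 members called for genotype in normoxia, genotype in hypoxia and hypoxia in P301S. With the length and GC trend removed they were 433, 133, 20, 189, 0, 429 and 1061, with 2, 0, 3 and 0 members called for genotype in normoxia, genotype in hypoxia, hypoxia in P301S and averaged genotype. Without the 6 libraries lowest in choroid plexus score they were 389, 16, 0, 45, 0, 60 and 1288, with 0 members called for genotype in either condition and for averaged hypoxia, where Bdnf stood at 0.22 (adjusted p = 0.103). These libraries are 6 of 23, so the fit also has fewer samples. With a covariate for the choroid plexus score the counts were 46 for hypoxia in P301S, 13 for the interaction and 138 for averaged hypoxia. The dentate granule score gave 13, 0 and 100 for the same comparisons, with 0 members called for hypoxia in P301S and 2 for genotype in normoxia. The meningeal score gave 17 for hypoxia in P301S and 0 for the interaction, with 0 members called for genotype in normoxia, and the legacy fit gave 0 for the interaction. Why the counts moved was not tested, and this includes the smaller number of samples.

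Values that changed sign were all small. For P301S against WT in normoxia Ntrk3 was -0.043 with the length and GC trend removed. In hypoxia Vgf was -0.017 without the 6 choroid-poor libraries, and -0.0017 to 0.13 with single libraries left out (lowest without WT hypoxia replicate 3). For hypoxia in WT, removing the length and GC trend gave -0.027 for Ntrk3, 0.011 for Sort1, 0.0096 for Vgf and 0.018 for Nptx2. Leaving out the choroid-poor libraries gave 0.016 for Vgf and 0.066 for Nptx2. Leaving out single libraries gave -0.036 to 0.0157 for Sort1, -0.15 to 0.0045 for Vgf and -0.12 to 0.064 for Nptx2. For averaged hypoxia Ntrk2 ranged from -0.0014 to 0.022. For averaged genotype Bdnf was 0.0095 without the choroid-poor libraries and -0.041 to 0.00395 with single libraries left out (highest without WT hypoxia replicate 1), and with the length and GC trend removed Ntf3 was -0.0044 and Ntrk2 -0.059. With that trend removed Bdnf (-0.29, adjusted p = 0.0475) and Ntrk2 (-0.18, adjusted p = 0.0417) were called lower in P301S in normoxia. No paired analysis was possible because the replicate numbers follow accession order and do not pair libraries across groups.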
